A study of Mus musculus with 8 samples.

Results

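The Pitx1 and Mab21l2 loci were examined in peak lists of methylated DNA from the epithelium of the mouse small intestine. All peaks overlapping the mm9 intervals chr13:55830000-56030000, given for Pitx1, and chr3:86250000-86450000, given for Mab21l2, were taken from the 8 lists and merged wherever they shared at least 1 bp. This gave 96 regions of the 475861 in the series, 66 in the Pitx1 interval and 30 in the Mab21l2 interval. The loci were chosen by measured presence and score, because each holds a strong region called in every adult list and in no list of the embryo. The adult and embryonic values at these regions are therefore a description and were not tested. Adult peaks without embryonic ones were not the rule at these loci: 38 of the 66 Pitx1 regions and 15 of the 30 Mab21l2 regions had peaks in at least 1 adult and 1 embryonic library, against 61.8% of all regions.

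Pitx1 encodes a homeodomain transcription factor known for its roles in hindlimb identity and in the pituitary. Mab21l2 encodes a vertebrate relative of the Caenorhabditis elegans protein MAB-21 and is needed in the mouse for eye and ventral body wall development. Genes of such developmental regulators often lie in CpG-rich DNA that is unmethylated in most normal tissues, and methylation of CpG-rich promoters is associated with stable silencing. In the assay, a methyl-CpG-binding (MBD) protein captures fragments with many methylated CpGs, and a peak marks a stretch where captured fragments piled up.

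The 4 groups had 2 biological replicates each, all from mice of a mixed C57BL/6 CD1 strain. E12.5 and E14.5 libraries came from embryonic small intestine, the number being the embryonic day, sorted as EpCAM+ CD31- CD45- epithelial cells. Intestinal stem cells (ISC), sorted for high Lgr5-EGFP, and enterocytes, sorted as EpCAM+ CD31- CD45- cells, came from Lgr5EGFP-Cre-ERT males at postnatal day 60. The sex and reporter genotype of the embryos, and the number of animals per library, were not given in the sources used here. Lists of methylated regions hold no transcript levels, so the cell type labels could not be checked against marker genes. The pull-down does not tell apart a region methylated in more of the cells from one methylated more densely in each of them.

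The sequence available for these loci is the RefSeq promoter of Mab21l2 in GRCm38.p6, from 250 bases before to 50 bases after the gene start, at chr3:86548234-86548533 on the minus strand. It is shown because CpG density sets how well a methylated fragment is captured, and its CpGs are in capitals.
Mab21l2 promoter: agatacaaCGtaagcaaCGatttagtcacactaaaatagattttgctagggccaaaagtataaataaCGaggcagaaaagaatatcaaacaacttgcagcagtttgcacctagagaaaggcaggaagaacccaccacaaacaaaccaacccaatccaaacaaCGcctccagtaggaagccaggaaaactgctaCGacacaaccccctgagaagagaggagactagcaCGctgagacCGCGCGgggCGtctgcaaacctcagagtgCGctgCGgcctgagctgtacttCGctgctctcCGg
The 300 bases hold 14 CpGs, a motif that reads the same on both strands, and 9 of them lie in the last 100 bases. Of 32851 RefSeq promoters of this length, 94.6% hold at least 1 CpG, the median is 7, and 36.3% hold 14 or more. The build of this table differs from that of the peaks, so the promoter and the genes were not placed on the peak map. In the same table Mab21l2 spans 2234 bases and overlaps Lrba, a far longer gene of 559239 bases that encodes a protein of vesicle trafficking. Pitx1 spans 11147 bases and has Catsper3, which encodes a sperm calcium channel subunit, and Macroh2a1, which encodes the histone variant macroH2A1, as its nearest protein-coding neighbours.

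Total depth was 31438314 to 55442400 tags per library. List length did not follow depth: the E12.5 libraries were the deepest and had the shortest lists (84990 and 100314 peaks), with 7.46% and 9.84% of their tags in peaks, against 23.8% to 38.9% in the other 6. The E14.5 lists were the longest, with 317772 and 338262 peaks. Absence from a list shows only that the caller's threshold was not reached, and the 2 short E12.5 lists lacked more regions in general.

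In the Pitx1 interval, a single region met the pattern of peaks in all 4 adult and no embryonic library, 1 of 66, where 0.402% of all 475861 regions did. It lay on chromosome 13 from 55926137 to 55928596 and was 2460 bp long. The ISC replicates had 179 and 245 tags there and the enterocyte replicates 245 and 247. In RPM, the tag count scaled by the total tags of the library, these were 5.52 and 7.79 for ISC and 5.65 and 6.31 for enterocytes, and none of the 4 embryonic lists had a peak in it. The adult values overlapped between the cell types, and the mean over the 4 adult libraries was 6.32 ± 1.04 RPM (SD, n = 4).

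This was the highest-scoring region of the interval in every adult library. Its scores, which grow as the p-value of the caller falls, were 405.05 and 527.51 in ISC and 479.12 and 444.20 in enterocytes, and each stood at or above the 99.8th percentile of its own list. The next region of the interval, from 55888300 to 55889805, scored 218.46 and 274.18 in ISC and 253.71 and 239.30 in enterocytes, and it was called in all 8 libraries. The fold enrichment over the caller's background, which is drawn from the same library, was moderate: 6.76 and 6.29 in ISC and 6.01 and 5.25 in enterocytes, at percentiles from 39.1 to 86.0. The high score thus did not go with an extreme fold. Nor was this region first by tags in every adult library: it ranked 2 and 1 in ISC and 4 and 3 in enterocytes. In enterocyte replicate 1, the region from 55849252 to 55853058 had a longer peak, of 3801 bp, with more tags, 378. Its score was lower, at 182.63, and so was its fold, at 3.1. What set the score was not tested.

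The 4 adult calls at Pitx1 had nearly the same borders. Their starts fell within 59 bp and their ends within 322 bp, and 2079 bp, 84.5% of the region, lay inside every adult peak. The summits were spread over 1203 bp, at 1448 and 1729 bp from the region start in ISC and at 1747 and 544 bp in enterocytes. The position of the highest pile-up inside the region was thus not shared, and with peaks reduced to 100 bp either side of the summit no stretch was called in all 4 adult libraries. The region was also lost when lists of equal length were ranked by fold in place of score, since its fold did not reach the 84990 highest of each longer adult list in every case.

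Embryonic peaks lay on both sides of the Pitx1 adult region. The nearest was in E14.5 replicate 1, 1776 bp before the region, with 32 tags and 0.926 RPM. On the other side the nearest was in E14.5 replicate 2, 5669 bp away, with 15 tags. The 2 embryonic stages together had no peak over 9905 bp, and E12.5 alone had none over 41.7 kb. Both stretches include the region itself, which was chosen for having no embryonic peak. Embryonic lists also had no peak between the regions centred 72.4 and 81.9 kb after its centre. Long peaks were a smaller part of the embryonic than of the enterocyte lists, and their part in the missing calls was not tested. Peaks of 2000 to 2800 bp numbered 560 in E14.5 replicate 1, with a lowest count of 149 tags and a median of 6.45 RPM. There were 43 in E14.5 replicate 2, where called peaks were shorter in general, 233 in E12.5 replicate 1 and 66 in E12.5 replicate 2. As a share of the list these were 0.176% and 0.0127% at E14.5 and 0.232% and 0.0777% at E12.5. The adult lists held 359 and 1017 such peaks in ISC, 0.177% and 0.36%, and 5113 and 2211 in enterocytes, 3.11% and 0.952%.

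**Figure D1:**
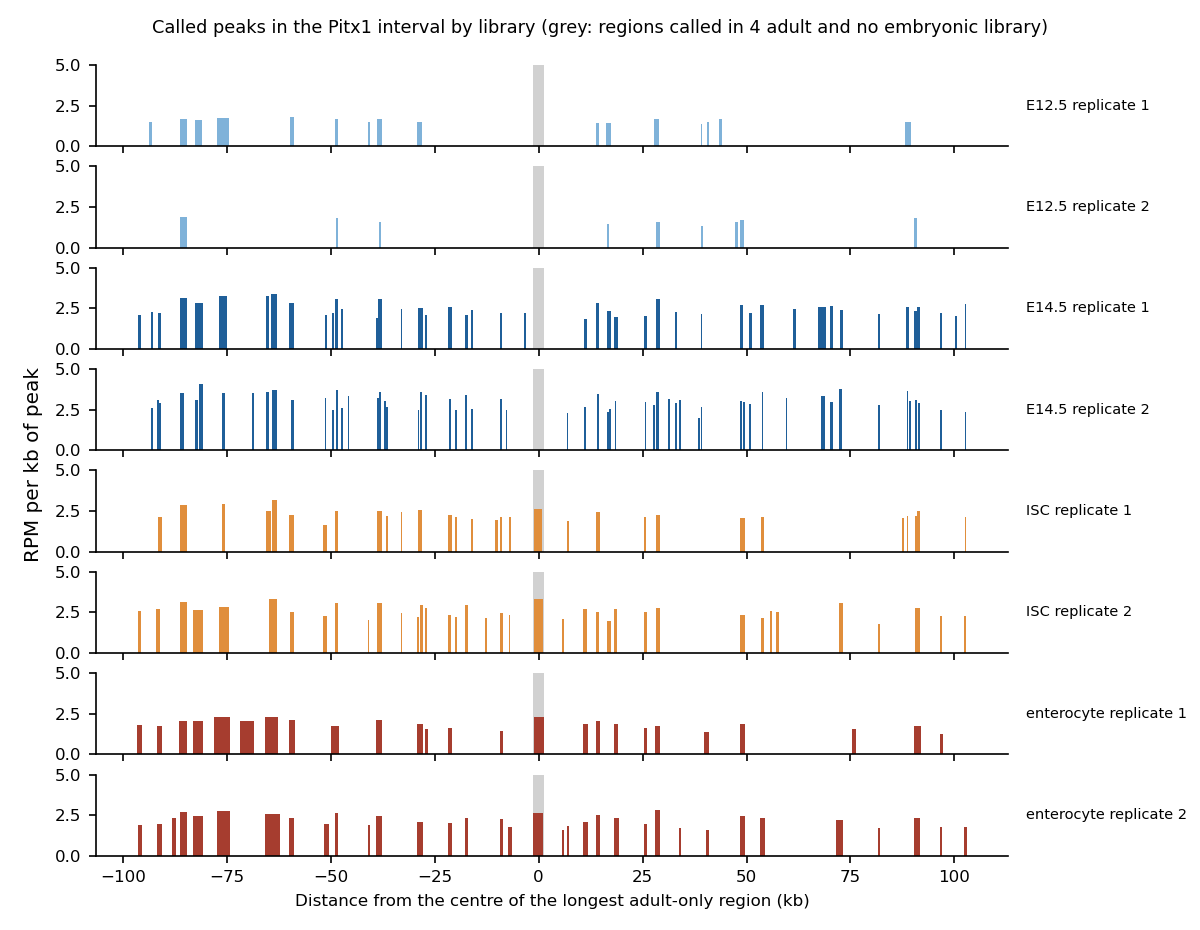
Called peaks in the Pitx1 interval, 1 row per library, against the distance in kb from the centre of the adult-only region (grey); bar height is RPM per kb of peak. The grey stretch holds a bar of 2.32 to 3.34 in each adult row and none in the 4 embryonic rows, while many bars to either side are shared with E14.5.

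Apart from that region, the adult and E14.5 libraries carried similar amounts of called signal around Pitx1. Summed over all peaks of the interval outside the adult-only region, the load was 90.8 and 80.9 RPM at E14.5, 51.9 and 84.4 in ISC, and 71.7 and 86.9 in enterocytes. E12.5 had 27.6 and 11.9, below every other library. Over the whole lists, however, 9.84% and 7.46% of the E12.5 tags lay in peaks, against 23.8% to 38.9% in the other libraries. Whether the low E12.5 load was particular to this locus was not tested. The adult-only region made up 6.77% to 9.61% of the called tags of the interval in adult libraries. At the 15 regions called in both E14.5 and all 4 adult libraries, the log2 ratio of the adult to the E14.5 mean had a median of 0.06 and ran from -0.32 to 0.47. Over all 81732 regions of the series called in those 6 libraries the median was 0.13.

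Regions called in all 8 libraries show the level at places of the locus that were methylated throughout. There were 4 of them among the 66, where 5.16% of all regions had this pattern. The region from 55840979 to 55842859 held 2.86 and 3.14 RPM at E12.5, 5.18 and 3.58 at E14.5, 5.00 and 5.34 in ISC, and 3.88 and 4.78 in enterocytes. The region from 55877541 to 55879378 held 1.21 and 1.08 at E12.5, 3.33 and 2.44 at E14.5, 2.07 and 2.48 in ISC, and 3.23 and 2.32 in enterocytes. In both, the E12.5 values were the lowest in RPM, and the E14.5 and adult values overlapped. RPM divides by all tags. The share of tags in peaks was 9.84% and 7.46% at E12.5, against 23.8% to 38.9% in the other libraries. Scaling by tags in peaks was not applied to E12.5, so its lower values may not be particular to these regions. The order of the groups depends on the scale, and the lower RPM does not by itself show less methylation at E12.5.

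The region from 55888300 to 55889805 held 1.86 and 0.884 RPM at E12.5, 3.53 and 3.35 at E14.5, 2.78 and 3.85 in ISC, and 3.11 and 3.32 in enterocytes. The last, from 55955022 to 55956658, held 2.17 and 1.53 at E12.5, 2.72 and 3.58 at E14.5, 2.16 and 2.67 in ISC, and 2.31 and 2.99 in enterocytes. In RPM the E12.5 means were again the lowest, with the same limit, though in the last region E12.5 replicate 1 was not below ISC replicate 1. Per kb of peak, the adult-only region reached 2.66 and 3.34 RPM in ISC and 2.32 and 2.64 in enterocytes. The regions called in all 8 libraries lay at 2.28 to 2.87 in ISC replicate 1, 2.75 to 3.17 in ISC replicate 2, 1.76 to 2.09 in enterocyte replicate 1 and 2.42 to 2.81 in enterocyte replicate 2. In tag density the adult-only region thus lay inside that range in 2 adult libraries and above it in the other 2.

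**Figure D2:**
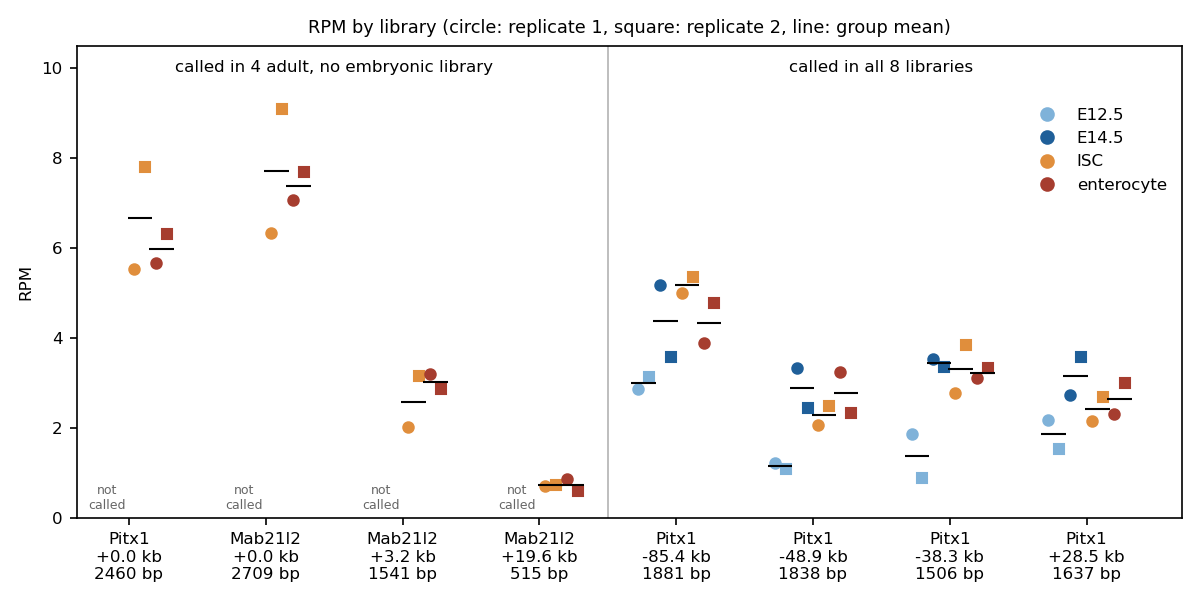
RPM in each library at the 4 regions called in all adult and no embryonic libraries and at the 4 Pitx1 regions called in all 8 libraries; labels give the distance from the longest adult-only region of the interval and the region length, and lines are group means of 2 replicates. ISC and enterocyte points overlap in all 4 adult-only regions. In RPM, which divides by all tags, E12.5 means are the lowest in the regions called everywhere. The E12.5 libraries had the smallest share of tags in peaks, so this order depends on the scale.

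Weaker peaks of adult libraries alone were spread over the Pitx1 interval, centred from 87.6 kb before to 87.5 kb after the centre of the adult region. A further 9 regions of the interval had adult peaks and no embryonic peak but missed at least 1 adult library, and 7 of these were called in a single library. With the fully called region this made 10 of 66 regions with adult peaks alone, or 15.2%, near the 13.0% of all regions with that pattern. The strongest in presence, from 55920094 to 55920934, was called in both ISC libraries with 35 and 34 tags and in enterocyte replicate 2 with 59. It would be a second adult-only region if enterocyte replicate 1 were left out. On the other side of the fully called region, the region from 55932989 to 55933569 was called with 34 tags in ISC replicate 2 and with 36 in enterocyte replicate 2.

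Embryonic peaks without adult peaks were found in the same interval. In 18 of the 66 regions peaks came from embryonic libraries alone, against 25.2% of all regions. Of these, 1 was called in all 4 embryonic libraries, a pattern seen in 0.139% of all regions. It lay from 55966330 to 55966815 and was short and weak, with 33 and 36 tags at E12.5 and 25 and 26 at E14.5. Without E12.5 replicate 2 or without ISC replicate 2 a second region would join it.

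Both E14.5 libraries and no other had peaks in 5 of the 66 Pitx1 regions, against 3.68% of all regions. The longest, from 55994564 to 55996486, held 171 and 107 tags, and its neighbour from 55997484 to 55998271 held 72 and 71. These E14.5 peaks were centred 68.2 and 70.5 kb from the centre of the adult region, and their folds were low, from 3.48 to 4.32. Peaks in both E14.5 and all adult libraries and in neither E12.5 library were found at 5 Pitx1 and 2 Mab21l2 regions, beside 5.49% of all regions. A single library accounted for 18 of the 66 Pitx1 and 10 of the 30 Mab21l2 regions, beside 28.1% of all regions.

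In the Mab21l2 interval, 3 of 30 regions were called in every adult list and in no embryonic list, beside 0.402% of all regions. The longest lay on chromosome 3 from 86349869 to 86352577 and was 2709 bp long. The ISC replicates had 205 and 286 tags there and the enterocyte replicates 306 and 301. These were 6.32 and 9.10 RPM for ISC and 7.06 and 7.69 for enterocytes, with a mean over the adult libraries of 7.54 ± 1.18 (SD, n = 4). ISC replicate 1 was the lowest and ISC replicate 2 the highest, so the enterocyte values lay between the ISC values.

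By score and by tags this was the first region of the Mab21l2 interval in all 4 adult libraries. The scores were 261.46 and 421.07 in ISC and 289.99 and 337.86 in enterocytes, at percentiles of 98.9 to 99.8 of their lists. The fold was low by contrast, at 5.12 and 5.06 in ISC and 3.65 and 4.04 in enterocytes, which put it at percentiles of 9.52 to 21.2. Its density, 2.46 and 3.57 RPM per kb in ISC and 2.61 and 3.00 in enterocytes, was above that of every other called region of the interval in each adult library. The adult-only pattern of this region was kept in lists cut to equal length by score and lost in lists cut to equal length by fold.

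The adult calls at Mab21l2 also had similar borders, with ends closer together than at Pitx1 and starts somewhat farther apart. Starts fell within 82 bp, ends within 112 bp, and 2515 bp, 92.8% of the region, lay inside all 4 peaks. Summits were again spread, over 1446 bp, and with summit intervals of 100 bp to either side this region too was not called in all adult libraries.

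The second adult-only region began 1064 bp farther on, from 86353642 to 86355182. Tag counts were 65 and 99 for ISC and 138 and 112 for enterocytes, or 2.00 and 3.15 and then 3.18 and 2.86 RPM. The values overlapped between the cell types. It was a much weaker call, with score percentiles from 18.1 to 60.3 and folds of 2.87 to 4.01, and it was not called in all adult lists once these were held to equal length by score. The nearest embryonic peak, of 18 tags in E14.5 replicate 2, lay 949 bp beyond its end.

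The third adult-only region, from 86370614 to 86371128, was short and close to the caller's limit. Tag counts were 23 and 23 for ISC and 37 and 23 for enterocytes, 0.588 to 0.854 RPM. Its summits were within 150 bp of each other, and it was the adult-only region of this interval that was still called with summit intervals. An E14.5 peak lay 1401 bp beyond it, in a region from 86372473 to 86373079 that was called in 6 libraries. That neighbour held 35 and 30 tags at E14.5, 24 and 21 in ISC, and 36 and 37 in enterocytes, and had no peak at E12.5. The E14.5 and adult values overlapped, at 1.01 and 0.860 RPM at E14.5 and 0.668 to 0.945 in the 4 adult libraries.

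From the start of the first to the end of the third, the adult-only regions of Mab21l2 spanned 21260 bp. The embryonic lists had no peak over 19.5 kb around the first and second, and the E12.5 lists had none over 114 kb. No region of the interval was called in all 8 libraries, so the Mab21l2 region could not be set against such a region of its own locus. E12.5 replicate 2 had a single peak in the whole interval, of 25 tags, and E12.5 replicate 1 had 4.

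**Figure D3:**
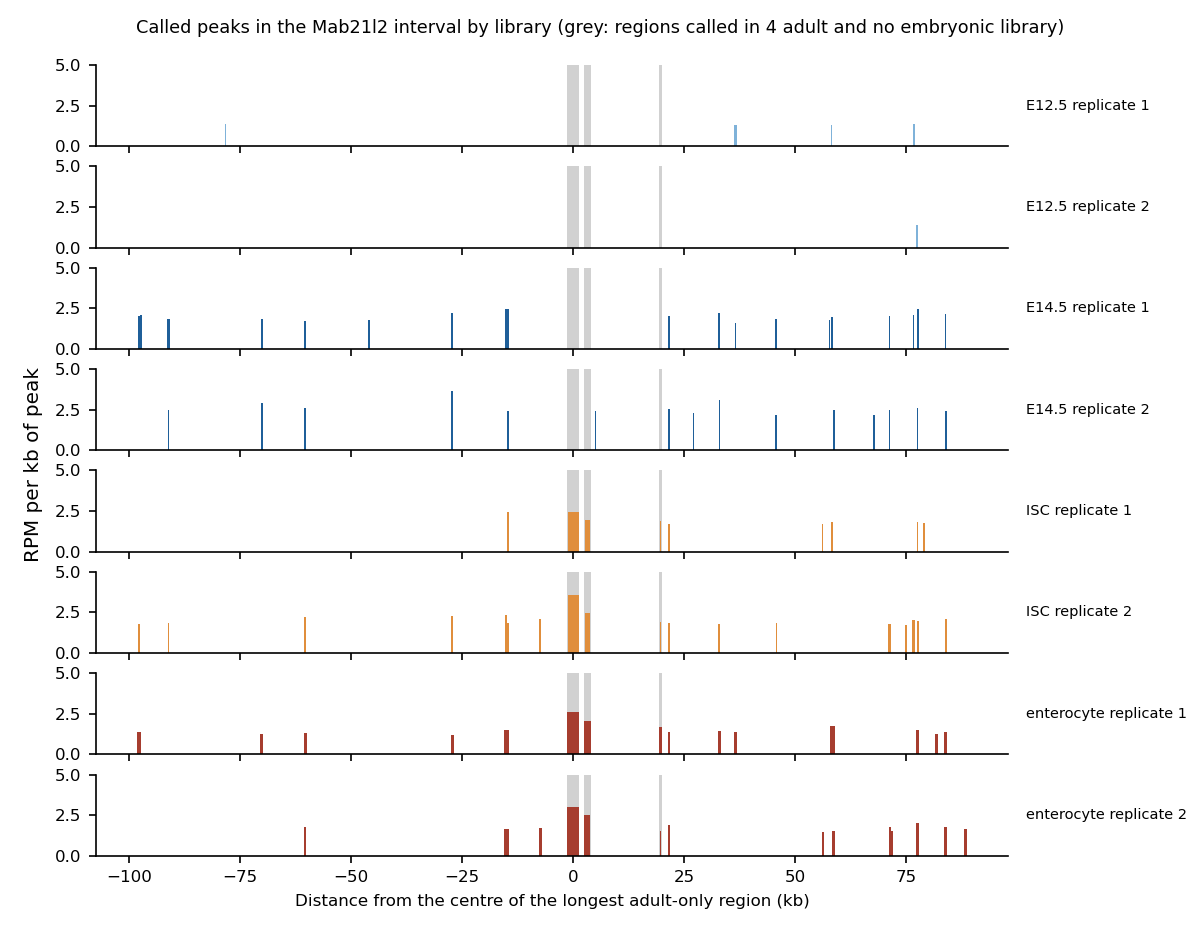
Called peaks in the Mab21l2 interval, 1 row per library, against the distance in kb from the centre of the longest adult-only region; the 3 adult-only regions are grey and bar height is RPM per kb of peak. The central bar reaches 2.46 to 3.57 in the adult rows and is missing from the embryonic rows, where E12.5 has 4 peaks and 1 peak in all.

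The adult-only regions held much of the called methylation of the Mab21l2 interval. They made up 66.7% and 51.1% of its called tags in ISC and 45.6% and 50.5% in enterocytes. Outside them the load was 4.50 and 12.4 RPM in ISC, 13.2 and 10.9 in enterocytes, and 15.8 and 9.17 at E14.5, so the adult and E14.5 libraries overlapped. E12.5 had 2.44 and 0.451. With the adult-only regions included, the totals were 13.5 and 25.4 in ISC and 24.3 and 22.0 in enterocytes, and ISC replicate 1 then remained below E14.5 replicate 1.

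**Figure D4:**
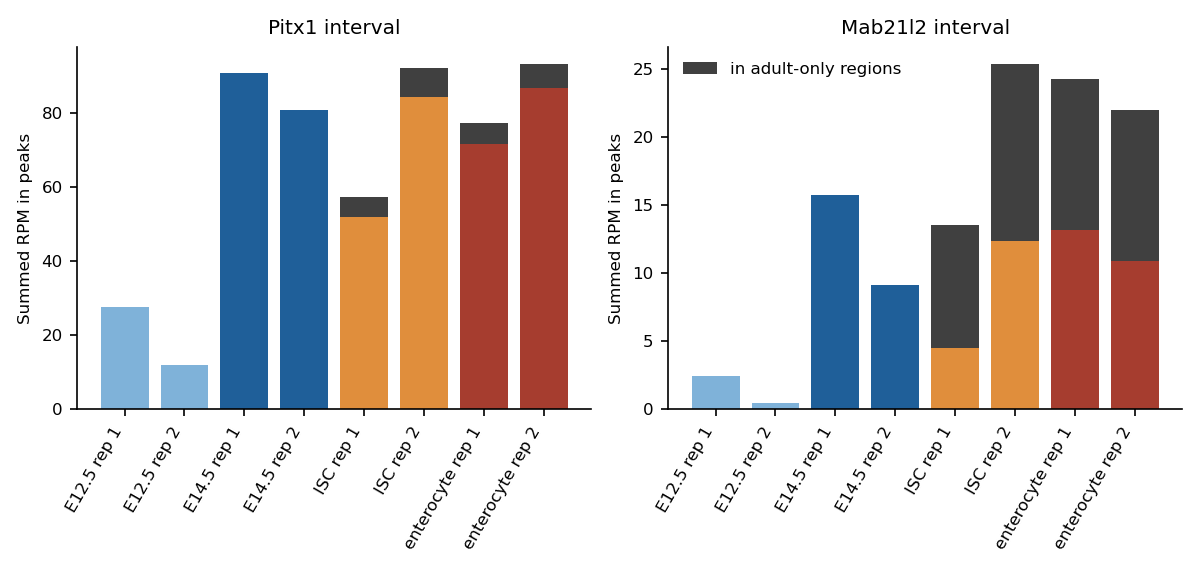
RPM summed over all called peaks of each interval, 1 bar per library, with the part in adult-only regions in dark grey. The dark part is 6.77% to 9.61% of the adult bars for Pitx1 and 45.6% to 66.7% for Mab21l2; no embryonic bar has a dark part because the regions were defined that way.

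Other Mab21l2 regions with adult peaks alone were weak. Besides the 3 named, 7 regions had adult peaks and no embryonic peak, 5 of them in a single library, so that 10 of 30 had adult peaks alone beside 13.0% of all regions. The region from 86343562 to 86344131 was called with 31 tags in ISC replicate 2 and 36 in enterocyte replicate 2. Embryonic peaks alone were found in 5 of the 30 regions, beside 25.2% of all regions. None of the 5 was called in all 4 embryonic libraries, a pattern of 0.139% of all regions, so a count of 0 among 30 is near the background. A region from 86335617 to 86336780 was called in the 6 libraries other than E12.5, with 73 and 18 tags at E14.5, 30 and 57 in ISC, and 77 and 60 in enterocytes. Its highest score percentile, 98.0, was in E14.5 replicate 1.

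The intervals were not chosen for a difference between ISC and enterocytes. They were chosen for a strong call in every adult list, however, which favours regions of similar level in both cell types. The comparison is therefore a description too. At the Pitx1 adult region the ISC mean was 6.66 ± 1.61 RPM and the enterocyte mean 5.98 ± 0.465 (SD, n = 2 for both), a log2 ratio of enterocyte to ISC of -0.15. At the longest Mab21l2 region it was 7.71 ± 1.96 and 7.37 ± 0.445, a log2 ratio of -0.06. Both differences were smaller than the spread between the ISC replicates. An exact two-sided permutation test of 2 libraries against 2 cannot fall below p = 0.33, so no test was made. Scaled by the tags in peaks in place of all tags, the Pitx1 values were 23.2 and 20.0 in ISC and 21.3 and 19.1 in enterocytes, and those of Mab21l2 were 26.6 and 23.4 in ISC and 26.6 and 23.3 in enterocytes. On this scale the ISC replicates lay closer together, and replicate 1 was the higher in both cell types.

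Among all 1911 regions with peaks in every adult and no embryonic library, the Pitx1 region and the longest Mab21l2 region were near the top, which is how they came to be chosen. By the lowest of the 4 adult score percentiles they ranked 2 and 3, by mean RPM 4 and 1, and by length 11 and 7. The median adult-only region was 857 bp long, with 1.17 RPM and a lowest percentile of 23.6. The second and the third Mab21l2 region ranked 1109 and 1491 by percentile. Regions longer than 2000 bp numbered 29 of the 1911, and 5 of these were above the 90th percentile in every adult list.

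The regions nearest to them in lowest percentile, 3 for each, were known only by position. For the Pitx1 region they were on chromosome 12 from 58649136 to 58652359 with 7.04 RPM over the adult libraries, the Mab21l2 region itself, and on chromosome 8 from 107791338 to 107793220 with 3.996. For the longest Mab21l2 region they were that same chromosome 8 region, on chromosome 2 from 129024986 to 129026530 with 3.97, and on chromosome 9 from 77962816 to 77963923 with 2.39. The regions like the second Mab21l2 region lay on chromosome 3 at 85618009 to 85618725 and 142743155 to 142744006 and on chromosome 12 at 102245380 to 102246613. Those like the third lay on chromosome 7 at 38455828 to 38456502, on chromosome 6 at 40617719 to 40618658 and on chromosome 3 at 90252255 to 90253259. Of these, only the chromosome 12 region nearest to Pitx1 was longer than 2000 bp, at 3224 bp, apart from the members themselves.

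**Figure D5:**
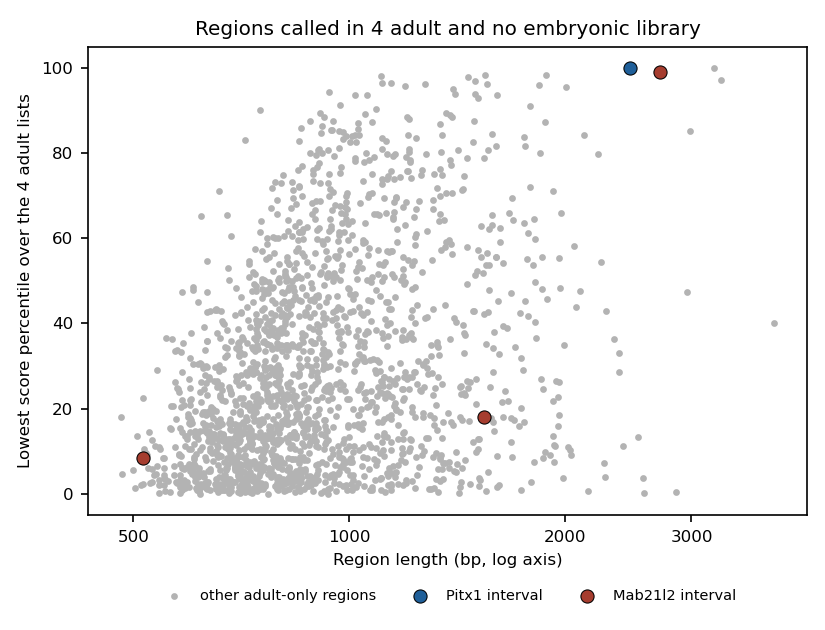
Each point is 1 of the 1911 regions called in all adult and no embryonic libraries, by region length in bp on a log axis and by the lowest score percentile over the 4 adult lists. The Pitx1 region (2460 bp, 99.8) and the longest Mab21l2 region (2709 bp, 98.9) sit at the upper right, and the other 2 Mab21l2 regions (18.1 and 8.35) lie in the lower part.

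The 2 loci differed in how densely they were filled. Of 12369 autosomal windows of 200 kb, 86.7% held fewer regions than the 66 of the Pitx1 interval and 41.2% held fewer than the 30 of the Mab21l2 interval, with a median of 40. At least 1 adult-only region was found in 13.0% of the windows, and 3 or more, as in the Mab21l2 interval, in 43 windows or 0.348%. Both intervals were chosen for adult peaks without embryonic ones, so these shares only describe them and do not test their rarity. Windows lay on a fixed grid and counted regions by midpoint, while the intervals counted them by overlap. With lists of equal length by score, the Mab21l2 interval kept 1 adult-only region. Peaks covered 17.4% and 12.7% of the Pitx1 interval at E14.5, 11.99% and 17.1% in ISC, and 19.8% and 20.2% in enterocytes. In the Mab21l2 interval they covered 3.87% and 1.75%, 3.19% and 5.23%, and 7.01% and 5.25%. Enterocyte coverage was thus above that of both E14.5 libraries at both loci, while enterocyte lists also had the longest peaks, with medians of 849 and 615 bp against 450 and 272 bp at E14.5.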

How the data were processed

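Each library was a list of peaks in mm9, 1 per replicate. Per the labels' protocols, 1 µg of DNA in fragments of 150 to 250 bp went into the MethylMiner pull-down. The submitters' processing notes name bcl2fastq 1.8.4, SAMtools 1.2 and Bowtie 1.1.2. Per the file headers, the caller was MACS 1.4.2, run on each library alone with no control, with its p cutoff at 1e-05, its band width at 200 bp and its regional background over 10000 bp. Copy number or repeats can therefore add to a peak. The tag counts per peak, the fold (a ratio to local background) and the score (10 times the negative log10 of the p-value) were used as deposited.

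With Python 3.11.15, pandas 2.3.3 and numpy 2.4.6, lists were merged at 1 bp overlap, and tags were summed per region and library and divided by the total tags of the header to give RPM. Percentiles are ranks within a list. Each list has its own threshold, so no value exists where no peak was called, and no test over libraries was made. Merging and the assignment of adult-only and embryo-only patterns were checked by planting ready-made, overlapping peaks in gaps of the real lists. This checked the code alone and could not test the peak caller or its threshold. The members, lists and regions described were chosen with earlier results of these data known. Values per library were given for regions called in all adult and no embryonic libraries, for regions called in all 8 and for their nearest neighbours, and outside the intervals for the 3 adult-only regions nearest in lowest percentile; other regions were named after their values were seen. A list of related genes was not analysed, because gene positions at hand are of GRCm38.p6 and were not converted. Alternatives covered list length, peak strength, merging, presence and leaving out each library, and 5 were added after seeing the data.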

Additional observations from a re-analysis of the deposited data

How the results depend on the processing

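Averaging the log2 ratio of enterocytes to ISC within replicate numbers (a replicate block added after seeing the data) gave -0.14 at Pitx1, from 0.03 in replicate 1 and -0.30 in replicate 2. At Mab21l2 it gave -0.04, from 0.16 and -0.24. The labels do not say that a number marks a shared animal or day, and no test was made on the 2 pairs. The longest adult-only regions of both intervals kept their pattern when peaks within 500 bp were merged. They also kept it with the looser presence rule, with each library left out, and with E14.5 or E12.5 alone as the embryonic side. A region called in every adult and no embryonic library meets these rules by definition, so these alternatives could not remove it. Lists shortened by score or held to 50% coverage cannot add embryonic peaks. The adult peaks there had high scores and wide overlap, so keeping the pattern in those lists adds little. Both regions lost the pattern under the 2 alternatives added after seeing the data that rank by fold or reduce peaks to their summits. With lists of equal length by score, 33 regions were left in the Pitx1 and 15 in the Mab21l2 interval, with 1 adult-only region in each and 0 embryo-only regions. With the higher 50% of each list, the values were 40, 18, 1 in the Mab21l2 interval and 0. Merging within 500 bp gave 0 embryo-only regions. Requiring 50% coverage gave 5970 adult-only regions over all lists. With 3 of 4 libraries against at most 1, there were 3 adult-only regions in the Pitx1 interval, 4 embryo-only regions and 26453 adult-only regions over all lists.

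With E14.5 alone on the embryonic side, 7 regions were embryo-only. With E12.5 alone there were 6 adult-only regions in the Pitx1 interval, 5 in the Mab21l2 interval and 33959 over all lists. Equal lists by fold left 21 and 19 regions, 0 adult-only regions in either interval, 0 embryo-only regions and 1242 adult-only regions over all lists. Summit intervals gave 0 adult-only regions at Pitx1 and 1 at Mab21l2. Leaving out 1 library at a time gave 60 to 67 regions at Pitx1 and 27 to 31 at Mab21l2, 1 to 2 and 3 to 3 adult-only regions, 1 to 2 embryo-only regions and 2052 to 5341 adult-only regions over all lists. The log2 ratio of enterocytes to ISC then ran from -0.38 to 0.12 at Pitx1 and from -0.30 to 0.22 at Mab21l2. Its ratio to regions called in all 8 libraries could be computed at Pitx1 alone. The cause of these shifts was not tested.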
